A study of Mus musculus with 12 samples.

Results

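A set of 10 genes of the actin cytoskeleton and of the YAP/TAZ pathway was followed in cultured primary mouse chondrocytes, which make the matrix of cartilage. The genes were picked by symbol and matched by Ensembl ID, with no threshold on their values, although earlier results of these data were known. All 10 matched 1 of the 57010 gene IDs counted, and all 10 were among the 14253 genes that passed the expression filter. Messenger RNA had been counted in 12 libraries of 4 per group: Control, WT and SIRT5F101L. The cells of all 3 groups are of the wild-type genotype. WT cells received the wild-type plasmid, SIRT5F101L cells a plasmid for the SIRT5F101L mutant, and what Control cells received is not given in the labels. The enzyme SIRT5 works mainly in mitochondria, where it strips malonyl groups from lysines. The labels give no age, sex, promoter, transfection rate or time after transfection. They do not say whether the libraries of a group came from separate cultures, so p-values measure the spread between these libraries only, which may be technical.

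Chondrocytes that are taken out of their matrix and grown on a flat, stiff surface spread, assemble actin stress fibres and lose cartilage matrix expression, a shift called dedifferentiation. Free actin holds the coactivators MRTF-A and MRTF-B in the cytoplasm. When actin polymerises, MRTF enters the nucleus, joins the transcription factor SRF and raises contractile genes such as Acta2, Tagln, Myl9, Cnn1 and Tpm1. Tension in the same fibres also frees YAP (gene Yap1) and TAZ (gene Wwtr1) from the Hippo kinases. Both then join TEAD factors at target genes, of which Ccn1 (CYR61), Ccn2 (CTGF) and Ankrd1 are the usual readouts. SRF binds the CArG box, and TEAD factors bind sequences that hold GGAATG.

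Promoter sequence in RefSeq (GRCm38.p6) was read for the 8 genes the table holds, over the 250 bases before the transcription start, on both strands. The stretches below show which of these genes carry letters of the SRF and TEAD motifs near their start. GGAATG, in capitals, was found for 6 of 8 genes, against 12.6% of all 32851 promoter windows of that length. In Ccn1 it lies on the other strand and reads CATTCC. The CArG box was searched only as CC, 6 letters of A or T, then GG, with no mismatch allowed. In capitals for Myl9, it was found for 1 of 8 genes, against 1.47% of windows. Near matches were not counted, as in the Acta2 window, which holds a stretch that differs by 1 letter. The AP-1 motif TGANTCA was found for 0 of 8, against 6.75%, and none of the 3 motifs for Cnn1. No match overlapped another. The promoters of Tagln and Ccn2 were not analysed here. Each stretch has 30 bases, read 5′ to 3′ along the gene. Those of Acta2, Tpm1 and Ankrd1 overlap an annotated exon of their gene.
Acta2, chr19:34255502-34255531, minus strand: gagcagaacagaGGAATGcagtggaagaga
Myl9, chr2:156775293-156775322, plus strand: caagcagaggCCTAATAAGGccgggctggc
Tpm1, chr9:67049252-67049281, minus strand: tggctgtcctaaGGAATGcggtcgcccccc
Ccn1, chr3:145650071-145650100, minus strand: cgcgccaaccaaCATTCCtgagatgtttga
Ankrd1, chr19:36120037-36120066, minus strand: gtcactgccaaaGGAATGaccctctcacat
Ankrd1, chr19:36119950-36119979, minus strand: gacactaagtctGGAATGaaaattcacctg
Yap1, chr9:8004720-8004749, minus strand: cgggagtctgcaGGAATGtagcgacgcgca
Wwtr1, chr3:57576029-57576058, minus strand: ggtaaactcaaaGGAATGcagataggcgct

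A match is a description of the letters and not a site of binding. The genes with GGAATG include some that fell and some that rose in both plasmid groups (below). For Myl9 and Ccn1 the longer stretch is given up to the first base of any annotated exon. Myl9 is a contractile gene that fell, and Ccn1 was the most abundant of the 10 per length in Control. Capitals mark the same matches, the CArG box and the TEAD letters. The Myl9 stretch has 206 bases (chr2:156775214-156775419, plus strand) and the Ccn1 stretch 250 (chr3:145649986-145650235, minus strand).
Myl9: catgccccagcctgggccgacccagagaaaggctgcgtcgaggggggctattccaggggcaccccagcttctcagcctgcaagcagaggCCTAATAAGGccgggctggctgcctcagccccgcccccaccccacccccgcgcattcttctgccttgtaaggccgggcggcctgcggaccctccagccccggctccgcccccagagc
Ccn1: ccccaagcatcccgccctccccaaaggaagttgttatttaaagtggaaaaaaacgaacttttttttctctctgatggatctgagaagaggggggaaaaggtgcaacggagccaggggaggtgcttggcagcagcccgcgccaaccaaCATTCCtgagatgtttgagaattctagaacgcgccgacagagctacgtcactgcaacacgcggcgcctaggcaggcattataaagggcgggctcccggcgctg

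Libraries held 15095357 to 24242139 counts, and 1 count was worth 0.0413 to 0.0662 CPM (counts scaled to the library's total). SIRT5F101L replicate 1 stood apart from the other 3 libraries of its group on the second principal component (20.3, against -23.5 to -17.0) and lay beside WT replicates 2 to 4 (12.5 to 20.1). WT replicate 1, at -1.07, lay between these and the other SIRT5F101L libraries. Whether the label of SIRT5F101L replicate 1 is right cannot be told from these values. Calls and fold changes of the 10 genes in SIRT5F101L are therefore also given without it; marker levels and the order per length are given only with it. Sirt5 itself had 9 to 16 counts in Control libraries, 1 to 9 in WT and 9 to 19 in SIRT5F101L, so no rise of Sirt5 was detectable at this depth in either group. The labels do not say that the wild-type plasmid holds SIRT5. By edgeR's quasi-likelihood test its adjusted p was 0.143 for WT and 0.954 for SIRT5F101L against Control.

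All 10 genes differed from Control in both plasmid groups, 4 higher and 6 lower in each (edgeR's quasi-likelihood test, Benjamini-Hochberg adjusted p under 0.05). The 5 contractile genes fell in both groups, as did Ccn1, while Ccn2, Ankrd1, Yap1 and Wwtr1 rose. Of the contractile genes, Tagln passed the expression filter through its Control libraries and had few counts. Its SIRT5F101L call was lost without Control replicate 4 or without SIRT5F101L replicate 2 (below). Calls against Control were common in these libraries. In WT 56.8% of all genes tested were called, 28.7% higher and 28.1% lower, and in SIRT5F101L 60.7%, 30.0% higher and 30.7% lower. The median log2 fold change over the 10 genes was -0.47 in WT and -0.56 in SIRT5F101L, against -0.01 and -0.02 over all genes tested. Groups did not overlap for 10 of 10 genes in WT and 9 of 10 in SIRT5F101L, against 53.5% and 51.3% of all genes. Without SIRT5F101L replicate 1, the same 4 and 6 were counted as higher and lower. The log2 fold changes against Control were then -2.82 for Acta2, -2.005 for Cnn1, -0.72 for Tpm1, -0.44 for Ccn1, 0.55 for Ccn2, 2.96 for Ankrd1, 0.34 for Yap1 and 0.52 for Wwtr1. Both comparisons use the same 4 Control libraries, so their likeness is in part shared. Bulk counts cannot tell fewer cells of a type from less RNA per cell.

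**Figure D1:**
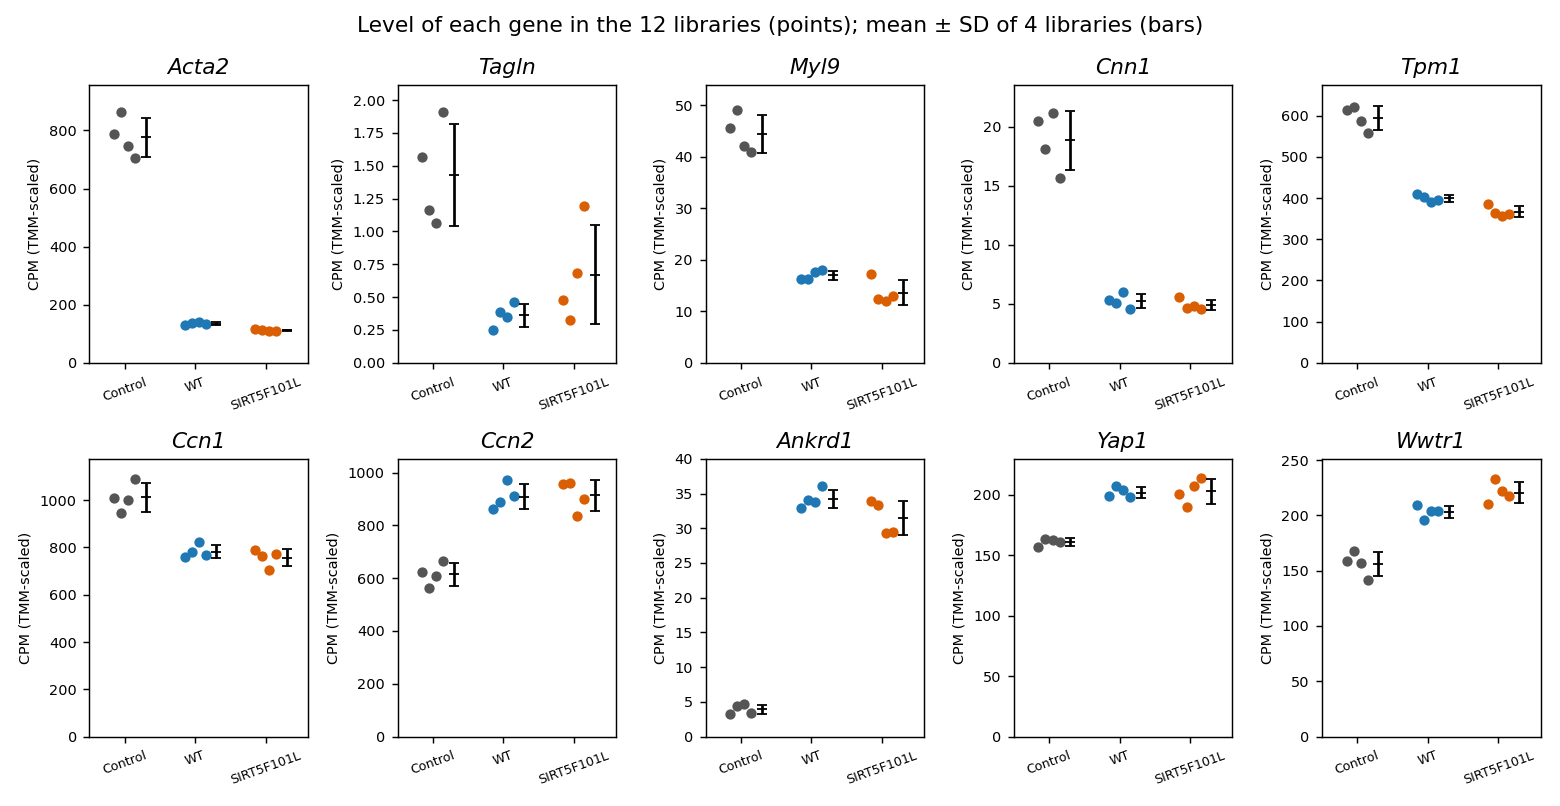
Level of each gene in TMM-scaled CPM (vertical axes, linear, from 0) in Control, WT and SIRT5F101L; points are libraries and bars the mean ± SD of 4. Acta2 drops from 705 to 865 CPM in Control to under 140 in every plasmid library, whereas Ankrd1 goes from under 5 CPM to 29.3 or more.

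Acta2 (ENSMUSG00000035783) encodes smooth muscle alpha-actin, the classic mark of contractile cells and myofibroblasts. Its level was 789, 865, 747 and 705 CPM in Control replicates 1 to 4, 131, 136, 140 and 134 CPM in WT, and 115, 113, 108 and 109 CPM in SIRT5F101L. Every plasmid library lay far below every Control library. The level fell 5.75-fold in WT (log2 fold change -2.52, SE 0.07, edgeR adjusted p 2.64e-17) and 6.97-fold in SIRT5F101L (-2.80, SE 0.07, edgeR adjusted p 5.77e-18). Of the 14253 genes tested, 196 had a lower fold change than Acta2 in WT and 149 in SIRT5F101L.

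Myl9 (ENSMUSG00000067818), a regulatory light chain of myosin whose phosphorylation drives contraction, had 45.7, 49.0, 42.0 and 41.0 CPM in Control. It had 16.3, 16.2, 17.6 and 18.0 CPM in WT and 17.2, 12.4, 12.1 and 12.9 CPM in SIRT5F101L. The plasmid libraries lay below all Control libraries, and SIRT5F101L replicate 1 lay among the WT libraries. The change was 2.61-fold lower in WT (log2 fold change -1.38, SE 0.10, edgeR adjusted p 3.92e-10) and 3.26-fold lower in SIRT5F101L (-1.70, SE 0.10, edgeR adjusted p 1.76e-11). Without SIRT5F101L replicate 1 the latter was -1.84.

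Cnn1 (ENSMUSG00000001349), calponin 1, binds actin and damps myosin's activity in smooth muscle. It had 20.4, 18.1, 21.2 and 15.6 CPM in Control, 5.28, 5.07, 6.01 and 4.58 CPM in WT, and 5.56, 4.68, 4.81 and 4.54 CPM in SIRT5F101L. Control libraries did not overlap with those of either plasmid, while the plasmid groups overlapped with each other. On the log2 scale the change was -1.85 (SE 0.13) in WT and -1.94 (SE 0.13) in SIRT5F101L, with edgeR adjusted p of 1.12e-10 and 4.98e-11.

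Tpm1 (ENSMUSG00000032366), a tropomyosin that lies along actin filaments and steadies them, fell by less. Its level was 614, 621, 587 and 558 CPM in Control, 411, 402, 391 and 396 CPM in WT, and 387, 364, 356 and 361 CPM in SIRT5F101L. Again no plasmid library reached the lowest Control library. The level was 1.49-fold lower in WT (log2 fold change -0.57, SE 0.05, edgeR adjusted p 2.12e-08) and 1.62-fold lower in SIRT5F101L (-0.70, SE 0.05, edgeR adjusted p 1.06e-09).

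Tagln (ENSMUSG00000032085), which encodes transgelin (SM22 alpha), an actin-binding protein of smooth muscle, was scarcely detected. It had 27, 23, 20 and 35 counts in Control, 5, 6, 6 and 9 in WT, and 9, 5, 17 and 21 in SIRT5F101L. Control and WT libraries did not overlap, but SIRT5F101L replicate 4 (1.19 CPM) lay above Control replicates 2 and 3 (1.17 and 1.07 CPM). By edgeR the log2 change was -1.97 (SE 0.41, edgeR adjusted p 0.000349) in WT and -1.07 (SE 0.37, edgeR adjusted p 0.0166) in SIRT5F101L. The latter was not called without Control replicate 4 (-0.90, edgeR adjusted p 0.0637) or without SIRT5F101L replicate 2 (-0.87, edgeR adjusted p 0.0585). In the SIRT5F101L comparison it was -0.94 without replicate 1, with an edgeR adjusted p of 0.0492. The gene passed the expression filter through its Control libraries, and no WT library exceeded 0.463 CPM. Annotated exons of Tagln overlap Pcsk7 and the antisense gene Gm48529 over 67.9% of their length in GENCODE M21. With the counting's strand setting not given in the sources used here, the Tagln counts are uncertain. Gm48529 had 0 counts in all 12 libraries and Pcsk7 37.8, 41.1 and 39.7 CPM on average in Control, WT and SIRT5F101L.

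The 3 usual YAP-TEAD targets did not move together. Ccn1 (ENSMUSG00000028195), a secreted matricellular protein that binds integrins, had 1011, 944, 1002 and 1090 CPM in Control. In WT it had 761, 780, 822 and 766 CPM, and in SIRT5F101L 790, 762, 706 and 772 CPM. All plasmid libraries lay below all Control libraries. Its change on the log2 scale was -0.37 (SE 0.06, edgeR adjusted p 2.31e-05) in WT and -0.42 (SE 0.06, edgeR adjusted p 5.02e-06) in SIRT5F101L.

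Ccn2 (ENSMUSG00000019997), the close relative of Ccn1 known as connective tissue growth factor, went the other way. It had 623, 563, 607 and 666 CPM in Control, 861, 890, 973 and 913 CPM in WT, and 957, 961, 836 and 901 CPM in SIRT5F101L. Every plasmid library lay above every Control library. The log2 fold change came to 0.56 (SE 0.07, edgeR adjusted p 3.67e-07) in WT and 0.57 (SE 0.07, edgeR adjusted p 2.89e-07) in SIRT5F101L. Exons of Ccn2 overlap the predicted gene Gm15270 over 23.2% of their length, and Gm15270 had 1 to 15 counts per library.

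Ankrd1 (ENSMUSG00000024803) encodes a nuclear and sarcomeric ankyrin repeat protein that responds to stretch in muscle. It had 3.25, 4.36, 4.63 and 3.44 CPM in Control, 33.0, 34.0, 33.7 and 36.1 CPM in WT, and 33.9, 33.4, 29.3 and 29.4 CPM in SIRT5F101L. The lowest plasmid library was several times the highest Control library. Its level was 8.68-fold higher in WT (log2 fold change 3.12, SE 0.11, edgeR adjusted p 2.46e-15) and 7.98-fold higher in SIRT5F101L (2.997, SE 0.11, edgeR adjusted p 4.37e-15). Among all genes tested, 188 had a higher fold change in WT and 216 in SIRT5F101L.

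Both coactivator genes rose modestly. Yap1 (ENSMUSG00000053110) had 156, 163, 163 and 161 CPM in Control, 199, 207, 204 and 198 CPM in WT, and 201, 190, 208 and 214 CPM in SIRT5F101L. The spread in Control was narrow, with a coefficient of variation of 1.97%, and no plasmid library reached into it. On the log2 scale the change was 0.33 (SE 0.05, edgeR adjusted p 2.96e-05) in WT and 0.34 (SE 0.05, edgeR adjusted p 1.99e-05) in SIRT5F101L. When each library's trend of level on transcript length was taken out, the SIRT5F101L change was 0.13 and was not called (edgeR adjusted p 0.0569), and the WT change was 0.20 (edgeR adjusted p 0.00596).

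Wwtr1 (ENSMUSG00000027803) had 158, 168, 157 and 142 CPM in Control, 209, 196, 204 and 204 CPM in WT, and 210, 232, 222 and 218 CPM in SIRT5F101L. The 3 groups did not overlap with one another. By edgeR the log2 change was 0.38 (SE 0.06, edgeR adjusted p 1.57e-05) in WT and 0.50 (SE 0.06, edgeR adjusted p 4.47e-07) in SIRT5F101L. These are messenger levels; the place of YAP and TAZ in the cell and their phosphorylation were not measured.

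**Figure D2:**
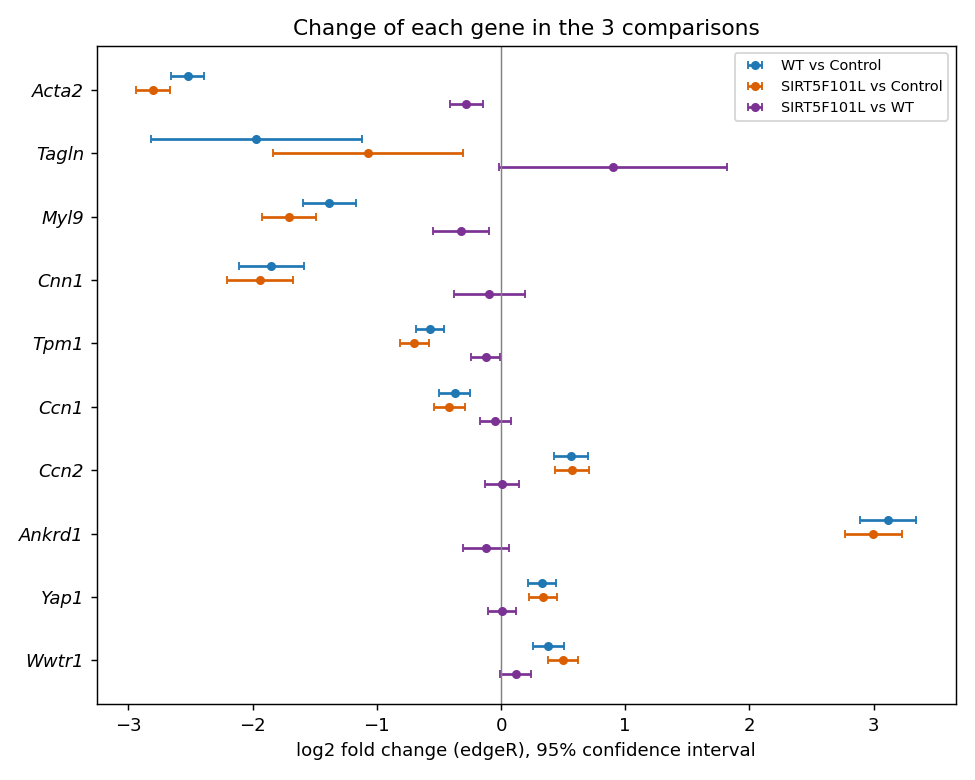
Log2 fold change of each gene (horizontal axis, edgeR) with its 95% confidence interval for WT against Control, SIRT5F101L against Control and SIRT5F101L against WT. The blue and orange intervals lie on the same side of 0 for all 10 genes, whereas most of the purple intervals, SIRT5F101L against WT, cover 0.

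Between the plasmids, the 10 genes were set directly against each other in the same fit. None was called (edgeR adjusted p of 0.137 or more), where 0.0421% of all genes tested, 6 of 14253, were called. At an unadjusted p under 0.05 there were 3 of the 10 genes, Acta2, Myl9 and Tpm1, and 1701 of all genes. DESeq2 called 1 of the 10, Acta2 (adjusted p 0.0158), and 38 of 12652 genes (0.300%). Acta2 was 1.21-fold lower in SIRT5F101L, with a log2 difference of -0.28 (95% confidence interval -0.41 to -0.15, edgeR adjusted p 0.137), and the groups did not overlap. Myl9 differed by -0.32 (-0.55 to -0.10, edgeR adjusted p 0.355) and Tpm1 by -0.12 (-0.24 to -0.01, edgeR adjusted p 0.395). Wwtr1 differed by 0.12 (-0.01 to 0.24, edgeR adjusted p 0.433). Groups did not overlap for 3 of 10 genes, Acta2, Tpm1 and Wwtr1, against 4.02% of all genes.

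The remaining intervals covered 0. They ran from -0.02 to 1.82 for Tagln, -0.38 to 0.20 for Cnn1, -0.17 to 0.08 for Ccn1, -0.13 to 0.14 for Ccn2, -0.31 to 0.07 for Ankrd1 and -0.10 to 0.12 for Yap1. A miss of the threshold does not show that the plasmids acted alike. These counts hung on SIRT5F101L replicate 1. Without it, Acta2 (-0.29, edgeR adjusted p 0.00212) and Myl9 (-0.45, edgeR adjusted p 0.00153) were called lower in SIRT5F101L, where 2213 of 14528 genes (15.2%) were called. The SIRT5F101L libraries then left had a steeper slope of level on transcript length (0.755 to 0.773) than the WT libraries (0.655 to 0.730). The part of that slope in these calls was not tested. Leaving out any 1 of the other 7 plasmid libraries gave 0 calls by edgeR among all genes, with 945 to 2191 genes at an unadjusted p under 0.05.

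Levels were compared between the genes per length, as CPM per kilobase of annotated exon. Exon length was taken whole, though 23.2% of it overlaps another gene for Ccn2 and 67.9% for Tagln, so their places are uncertain. In Control the order from the top was Ccn1 (501 ± 29.6 CPM per kilobase, SD, n = 4), Acta2 (354 ± 31.0), Ccn2 (215 ± 14.9), Tpm1 (91.7 ± 4.38), Myl9 (38.2 ± 3.16), Wwtr1 (32.7 ± 2.26), Yap1 (17.4 ± 0.342), Cnn1 (6.89 ± 0.921), Ankrd1 (1.36 ± 0.235) and Tagln (0.718 ± 0.196). Of these neighbours, the SD ranges of Myl9 and Wwtr1 came closest, without touching. In WT, Ccn2 (318 ± 16.6) stood next after Ccn1 (388 ± 13.8), and Acta2 (61.5 ± 1.68) lay level with Tpm1 (61.7 ± 1.33), within their spread. Ankrd1 (11.8 ± 0.466) passed Cnn1 (1.91 ± 0.217) and lay just under Myl9 (14.7 ± 0.758). The SIRT5F101L order was the same as in WT, with Acta2 at 50.7 ± 1.42 and Tpm1 at 56.6 ± 2.08, and with Myl9 (11.7 ± 2.07) and Ankrd1 (10.9 ± 0.863) within their spread.

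Ratios of 2 genes' counts within a library do not depend on scaling between libraries, and 4 pairs were compared in 3 contrasts. Ccn1 had 1.62 to 1.68 times the counts of Ccn2 in Control, 0.840 to 0.884 times in WT and 0.793 to 0.856 times in SIRT5F101L. The raw counts thus changed order in every plasmid library. Per length, over all annotated exon bases, Ccn1 stayed above Ccn2 in all 3 groups, as given above. That order is uncertain, since 23.2% of Ccn2's exon length overlaps Gm15270 and the strand setting is not given. On the log2 scale the ratio of counts averaged 0.72 ± 0.02 (SD, n = 4) in Control, -0.22 ± 0.04 in WT and -0.27 ± 0.05 in SIRT5F101L. The differences from Control, -0.94 and -0.99, each had an exact 2-sided permutation p of 0.0286, the smallest that 4 against 4 libraries allow, and 0.0686 after adjustment over 12 tests.

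Ankrd1 against Ccn2 differed from Control by 2.57 in WT and 2.44 in SIRT5F101L on the log2 scale, again with an exact permutation p of 0.0286 (0.0686 adjusted) each. Yap1 and Wwtr1 kept a ratio near 1 count for 1, and differed from Control by -0.06 in WT (exact permutation p 0.429, adjusted 0.429) and -0.17 in SIRT5F101L (0.0571, adjusted 0.0979). Acta2 relative to Tagln differed from Control by -1.62 in SIRT5F101L (exact permutation p 0.0286, adjusted 0.0686), and the value for WT was -0.62 (0.0857, adjusted 0.129). Without SIRT5F101L replicate 1 the 4 differences from Control in SIRT5F101L were -0.99 for Ccn1/Ccn2, 2.42 for Ankrd1/Ccn2, -0.18 for Yap1/Wwtr1 and -1.74 for Acta2/Tagln. Between the plasmids the 4 exact permutation p-values ran from 0.0571 to 0.143. None of the 12 passed after adjustment with 0.5 added to each count. With 5 added, 7 of 12 passed at an adjusted exact permutation p of 0.049: Ccn1/Ccn2 and Ankrd1/Ccn2 against Control in both groups, and Acta2/Tagln in all 3 contrasts. Acta2/Tagln, which rests on few Tagln counts, then moved to -1.12 in WT and -1.89 in SIRT5F101L against Control, and was -0.78 between the plasmids.

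**Figure D3:**
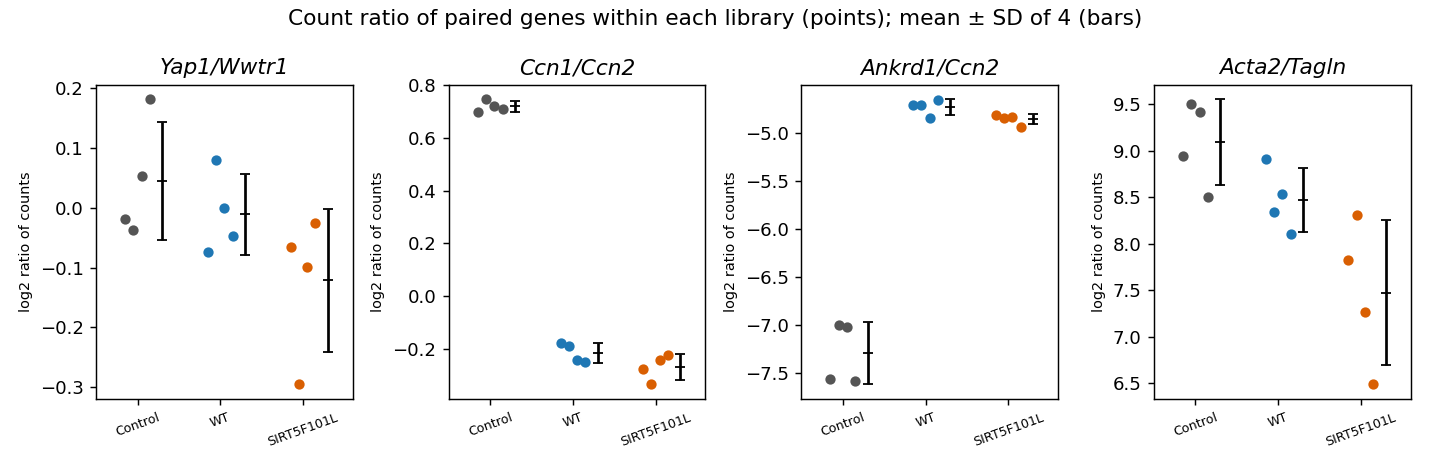
Log2 ratio of the counts of paired genes within each library (vertical axes), by group; points are libraries and bars the mean ± SD of 4. Ccn1/Ccn2 is above 0 in the 4 Control libraries and below 0 in the 8 plasmid libraries, while the groups overlap for Yap1/Wwtr1.

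Other contractile genes and targets of SRF and MRTF were mixed, with more lower than higher. Of 38 listed genes 35 were tested. In WT 17 were lower, 9 higher and 9 not called, with a median log2 fold change of -0.20, and in SIRT5F101L 21 were lower, 9 higher and 5 not called, with a median of -0.27. The share called was 74.3% and 85.7%, against 56.8% and 60.7% of all genes, of which 28.1% and 30.7% were lower. Lower in both groups were the smooth muscle tropomyosin Tpm2 (283 ± 6.75, 158 ± 11.97 and 133 ± 12.2 CPM in Control, WT and SIRT5F101L), the calponins Cnn2 (359 ± 16.9, 217 ± 10.4 and 188 ± 15.4 CPM) and Cnn3 (446 ± 20.4, 228 ± 8.26 and 228 ± 8.02 CPM), and smoothelin, Smtn (153 ± 4.08, 89.8 ± 1.31 and 85.8 ± 4.67 CPM). The tropomyosins split, since Tpm3 rose by 0.62 and 0.67 and Tpm4 by 0.63 and 0.64 on the log2 scale, as did alpha-actinin 1, Actn1, by 0.79 in both groups. The cytoplasmic actins, Actb and Actg1, changed by -0.05 and -0.06 in WT (edgeR adjusted p 0.53 and 0.398) and by -0.17 and -0.16 in SIRT5F101L (0.0268 and 0.0312). Srf itself rose in WT (0.23, edgeR adjusted p 0.011) and had 0.07 in SIRT5F101L (edgeR adjusted p 0.406). Tpm3, Tpm4, Actn1, Actb, Actg1 and Srf were chosen for this account after their values were seen. Actc1 was listed at 0 in all 12 libraries, as was Flna, which lies on the X chromosome, where every ID was listed at 0.

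In the Hippo pathway, which restrains YAP and TAZ, 24 of 26 listed genes were tested. In WT 12 were higher and 4 lower (median 0.18), and in SIRT5F101L 14 were higher and 5 lower (median 0.27). The share called was 66.7% and 79.2%, against 56.8% and 60.7% of all genes. The kinases Stk4 (MST1; 0.65 and 0.70 on the log2 scale) and Map4k4 (0.51 and 0.60) rose in both groups. The TEAD factors went both ways. Tead4 rose from 19.8 ± 1.96 CPM to 43.0 ± 4.52 in WT and 40.6 ± 3.72 in SIRT5F101L, and Tead2 fell from 24.8 ± 1.09 to 12.8 ± 0.254 and 11.7 ± 0.643 CPM. Each of these 4 genes passed edgeR's test in both comparisons, with adjusted p of 5.07e-07 or less. With the length trend taken out, 10 genes of the list were higher and 8 lower in WT, and 11 higher and 6 lower in SIRT5F101L.

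Among 19 other targets reported for YAP and TEAD, all tested, 8 were higher and 6 lower in each plasmid group. The medians were -0.04 in WT and 0.08 in SIRT5F101L. The share called was 73.7% in each, against 56.8% and 60.7% of all genes. Which direction held more genes depended on the setting. With the length trend taken out, 7 were higher and 9 lower in WT and 7 and 8 in SIRT5F101L, and a fit of only the 8 libraries compared gave 7 and 8 in WT. In WT, 7 and 7 were counted with upper-quartile scaling and with no low-count filter. Nt5e (CD73, an enzyme that makes adenosine) rose from 57.6 ± 5.88 CPM to 408 ± 32.4 and 437 ± 9.78, and the receptor kinase Axl from 345 ± 14.8 to 856 ± 30.1 and 822 ± 14.6. Tgfb2, a TGF-beta ligand, fell from 50.4 ± 3.30 CPM to 9.38 ± 1.04 and 10.4 ± 1.92, and Ccdc80, a matrix protein, from 3227 ± 327 to 947 ± 28.2 and 951 ± 35.8. Amotl2, Lats2 and Ptpn14 stand in this list and in the Hippo list. Lats2, counted as higher in both, passed the expression filter through the plasmid groups (0.202, 0.565 and 0.664 CPM). With a minimum mean of 1 CPM, 7 targets were higher and 6 lower in each group.

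The other members of the CCN family, whose founders are Ccn1, Ccn2 and Ccn3, were lower in both groups where tested, 3 of 3, against 28.1% and 30.7% of all genes. Ccn3 (NOV) fell from 1656 ± 29.7 CPM to 368 ± 5.43 in WT and 387 ± 12.9 in SIRT5F101L. Ccn5 (WISP2) fell from 1598 ± 74.0 to 389 ± 15.1 and 398 ± 32.1 CPM, and Ccn4 (WISP1) from 62.8 ± 4.27 to 35.0 ± 2.65 and 37.7 ± 2.64 CPM. Ccn6 did not pass the expression filter. Ccn1 was lower and Ccn2 higher, as above.

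No gene of the 4 lists was called between the plasmids, with 6 called among all genes tested. Without SIRT5F101L replicate 1, calls between the plasmids were 2 higher and 5 lower among contractile genes, 8 and 0 in the Hippo list, 3 and 1 among the targets and 0 in the CCN family, beside 15.2% of all genes. Against Control, the counts without that library were, in the same order, 9 higher and 20 lower, 14 and 5, 9 and 6, and 0 and 3, beside 63.2% of all genes called.

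**Figure D4:**
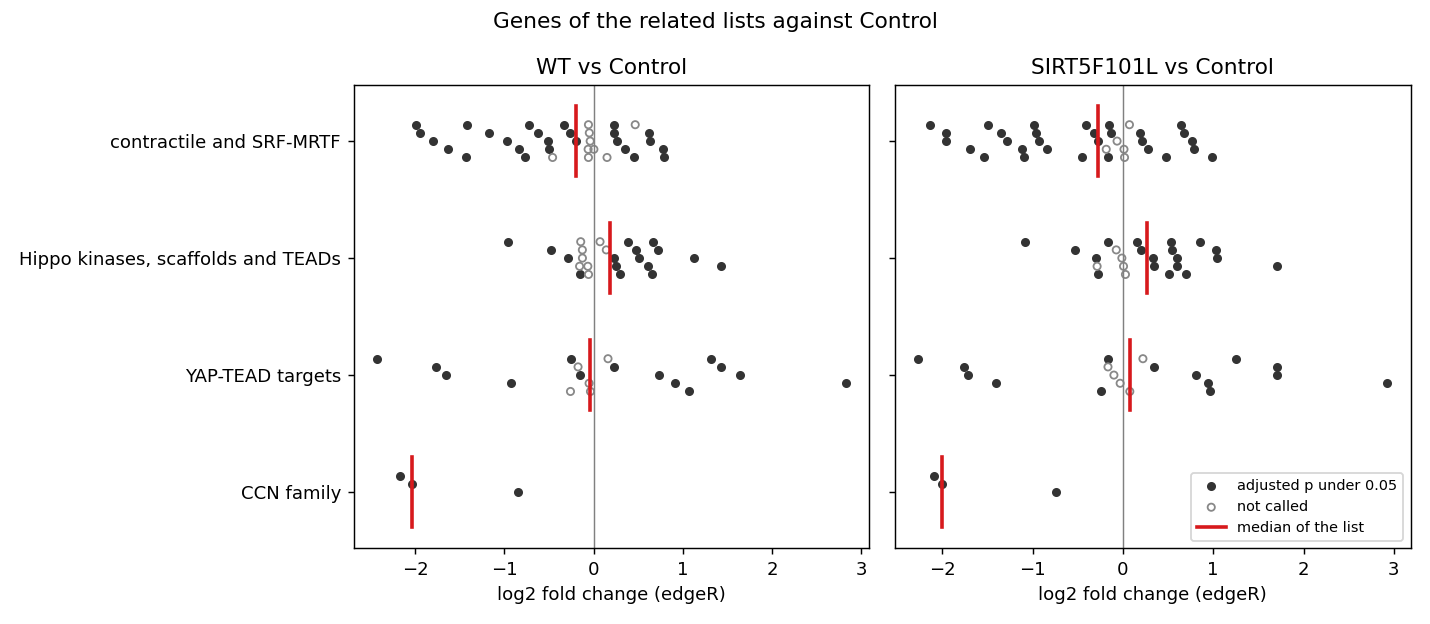
Log2 fold change (horizontal axes, edgeR) of the tested genes of the 4 related lists in WT and SIRT5F101L against Control; filled points passed at an adjusted p under 0.05, open points did not, and red bars are list medians. The contractile list reaches from about -2 to 1, with more filled points on the lower side, and the 3 CCN family genes lie below 0.

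Markers of the cell types that such a culture could hold moved beside the 10 genes. Of 14 chondrocyte markers 12 were lower in each plasmid group, against 28.1% and 30.7% of all genes tested. Acan (log2 fold change 0.47, edgeR adjusted p 1.78e-05) and Hapln1 (0.25, edgeR adjusted p 0.00432) were higher in WT. In SIRT5F101L Hapln1 was higher (0.18, edgeR adjusted p 0.0329) and Acan was not called (0.10, edgeR adjusted p 0.243). Their summed level was 9340 to 11710 CPM in Control, 2855 to 2969 in WT and 2324 to 2569 in SIRT5F101L, most of it in Control from Col2a1, Comp and Col11a1 (6719, 2044 and 1426 CPM). Of 10 fibroblast markers 8 were lower in each group, with sums of 30740 to 36610, 11170 to 12360 and 11010 to 12140 CPM. Dcn (414, 1125 and 1304 CPM) and Pdgfra (200.1, 263 and 307 CPM) were higher in both. Of those that were lower, Dpt (1.16, 0.0391 and 0.0301 CPM) passed the expression filter through Control only. Of 12 macrophage and leukocyte markers 11 were tested, and 10 were lower in WT and 9 in SIRT5F101L, with sums of 206 to 243, 140 to 160 and 149 to 192 CPM. Cd14 was higher in both groups (12.4, 51.3 and 59.8 CPM in Control, WT and SIRT5F101L) and makes up much of the plasmid sums. Itgam was at 0.

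Smooth muscle cells and pericytes also express Acta2, Tagln, Myl9 and Cnn1. Of 12 markers of these cells, Myh11, Des, Actg2, Lmod1 and Myocd also stand in the contractile list. Of the 12, 10 were tested, and 5 were lower in each group, 2 higher in WT and 3 higher in SIRT5F101L. Of all genes tested, 28.1% were lower and 28.7% higher in WT, and 30.7% lower and 30.0% higher in SIRT5F101L. The 5 that fell were Myh11, Actg2, Lmod1, Des and Synpo2. In Control, WT and SIRT5F101L, Myh11 had 4.12, 1.16 and 0.920 CPM, Actg2 6.05, 1.52 and 1.53 CPM, Lmod1 7.80, 2.55 and 2.41 CPM, and Des 1.99, 0.512 and 0.509 CPM. Other markers went the opposite way: Cspg4 (log2 fold change 0.85 in WT and 0.66 in SIRT5F101L) and Hhip (2.21 and 2.46) were called higher in both groups, and Rgs5 in SIRT5F101L (0.51, with -0.01 in WT, not called). Hhip passed the expression filter through the plasmid groups, and Des through Control. Notch3 and Casq2 were not called in either group, Myocd was not tested, and Kcnmb1 was at 0. The summed level of the list was 285 to 374 CPM in Control, 511 to 596 in WT and 461 to 544 in SIRT5F101L, most of it from Cspg4 (297, 536 and 468 CPM). Endothelial markers summed to 7.49 to 10.7 CPM in any library, with 1 of 6 tested genes higher and 0 lower in each group. Skeletal muscle markers summed to 11.4 to 12.5 CPM in Control, 3.91 to 6.70 in WT and 3.85 to 5.08 in SIRT5F101L, with 3 of 4 tested genes lower in each group. Of these 3, Des and Tnnt3 passed the expression filter through Control. The part of any of these cells in the changes of the 10 genes was not tested.

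The genes whose levels ran most like those of 3 of the 10 were found by Pearson's r of log2 CPM over the 12 libraries, among 9780 genes. Since Control and plasmid libraries form separate clusters, r mostly restates that division, and it exceeded 0.95 for 759, 418 and 492 genes. Nearest to Acta2 were Mest (r = 0.998), H19 (0.998) and Anxa6 (0.997). Mest went from 463 CPM in Control to 14.9 in WT and 11.7 in SIRT5F101L, and H19 from 733 to 79.3 and 62.4 CPM. Nearest to Ccn2 were Orai1 (0.982), Spry2 (0.981) and Serpina3n (0.980), and nearest to Yap1 were Galnt18 (0.982), Smurf1 (0.982) and Rrp12 (0.981).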

How the data were processed

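Poly(A)-selected RNA was sequenced as paired-end reads from 12 libraries. The deposited values are raw counts per Ensembl gene ID, with no header. FastQC 0.11.9, HISAT2 2.2.1, HTSeq 2.0.2, DESeq2 1.38.3 and GRCm39 are named per the submitters' processing notes, without role or order, and the annotation and strand setting are not given in the sources used here. All 3998 IDs of the X, Y and mitochondrial chromosomes were at 0.

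Counts were fitted in edgeR 4.0.16 (R 4.3.3) after TMM scaling and edgeR's standard low-count filter, using 1 quasi-likelihood model for the 12 libraries (9 residual degrees of freedom), with 2-sided tests adjusted over 14253 genes. CPM are TMM-scaled, and ± is the SD over 4 libraries. The biological coefficient of variation was 9.18%. Within groups, counts differed by 2.55 to 8.92 times sampling noise, so no library repeats another of its group. Libraries of different groups were not compared in this way. Replicate numbers follow accession order and pair nothing. On simulated counts for WT against Control (14253 genes), 81.4% of 199 genes changed 2-fold and 63.5% of 197 changed by 0.5 on the log2 scale were called, and 4.01% of calls were false. Far fewer genes were changed there than were called in the data (56.8%), so these shares need not hold for the real comparison. Library totals limit single counts to about 0.05 CPM.

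The 10 genes, the 4 related lists and the 6 marker lists were chosen with earlier results of these data known. Another list is not reported here. Named from each list are the up to 4 genes with the lowest adjusted p against Control; exceptions are stated. Likeness used genes with a mean of 5 CPM or more. Alternatives were upper-quartile or RLE scaling, DESeq2 1.42.0, a robust prior, a fit of only the 8 libraries compared, no low-count filter, a minimum mean of 1 CPM, each library left out, 5 in place of 0.5 added to counts in ratios and, added after results had been seen, the lowess trend on transcript length (span 0.5) as an offset. Exon lengths, overlaps and a BLAST search for copies came from GENCODE M21 (GRCm38), and promoters from RefSeq (GRCm38.p6); no coordinate refers to the build of the counts. Apart from overlapping genes (Pcsk7 and Gm48529 for Tagln, Gm15270 for Ccn2, Gm20416 for Yap1), no copy of at least 95% identity was found for the 10 genes.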

Additional observations from a re-analysis of the deposited data

Results flagged for a closer look

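Each of the 10 genes was screened in each group for a library far from the other 3, by Dixon's ratio (the gap to the nearest library over the group's range). Of 30 screens, where chance gives 1.5, 1 passed the critical value for 4 libraries. Myl9 stood at 17.2 CPM in SIRT5F101L replicate 1, against 12.1 to 12.9 CPM in the other SIRT5F101L libraries (ratio 0.834). The same library stood apart on the second principal component and in its slope of level on transcript length (0.635, against 0.755 to 0.773). The part of either in the Myl9 value was not tested.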

How the results depend on the processing

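Against Control, all 10 genes kept their direction under every alternative, and the count called was 9 or 10 of those tested, Tagln being untested under the filter at a mean of 1 CPM. Between the plasmids the count was 0 of 10, but 1 with no low-count filter (Acta2, adjusted p 0.00798) and 1 by DESeq2 (Acta2, adjusted p 0.0158), and 0 to 2 with single plasmid libraries left out. All genes called there numbered 6, and 354 with no filter, 38 by DESeq2, 17 with the length trend as offset and 2 with a robust prior or with only the 8 libraries compared. Of the related lists, no filter called 2 contractile genes lower and 1 YAP-TEAD target higher between the plasmids. Differences near 0 between the plasmids changed sign. With the length offset Ccn1 was 0.0074 and Yap1 -0.0662. Ccn2 was -0.0189 without WT replicate 1, -0.0042 without WT replicate 2, -0.0145 without SIRT5F101L replicate 1 and -0.0189 without SIRT5F101L replicate 2. Over the 8 plasmid libraries left out in turn, Ccn2 ran up to 0.0475. Yap1 was -0.0021 without WT replicate 4, -0.0029 without SIRT5F101L replicate 3 and -0.0188 without SIRT5F101L replicate 4, and ran up to 0.0387. The causes were not tested. Under every scaling the median log2 fold change of all genes lay within 0.063 of 0. No paired analysis was possible because replicate numbers only name libraries in accession order. Depth limits Tagln most, at 5 to 35 counts per library.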
